A study of Mus musculus with 11 samples.

Results

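Expression of 5 genes proposed as markers of mammary stem cells, Lgr5, Procr, Tspan8, Bcl11b and Axin2, was followed in RNA-seq libraries of the mouse mammary gland. The genes were chosen by name, were matched by their Entrez identifiers and are 5 of the 27179 genes counted. They were measured in all 11 libraries of the study, to ask which were expressed in basal cells, which persisted in mammosphere culture and which were too low to judge. MaSC/basal cells (CD24+CD29hi, the basal population enriched in mammary stem cells), LP cells (CD24+CD29loCD61+, enriched in luminal progenitors) and ML cells (CD24+CD29loCD61-, enriched in mature luminal cells) were sorted from mammary glands of wild type virgin FVB/N females, labelled as 8 weeks old, with 3 libraries per population. Mammosphere cells, grown from MaSC/basal cells of the same strain in suspension with EGF, bFGF, insulin and hydrocortisone, and Comma Dβ cells, an established Balb/c line derived from the mid-pregnancy gland and labelled CommaD-βGeo, were represented by 1 library each. The submitted name of the mammosphere library holds a pair of sample codes and may combine more than 1 culture, which the labels do not say. The sorted populations are enriched gates and not pure stem, progenitor or mature cells, and MaSC/basal cells include the contractile myoepithelial cells of the gland.

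The mammary epithelium has an inner luminal layer and an outer basal layer, and cells of the basal layer can rebuild a gland after transplantation. Lgr5 is a receptor for R-spondins, secreted proteins that amplify Wnt signalling, and Axin2 is a scaffold of the complex that degrades β-catenin and is itself switched on by Wnt signalling, which makes it a common reporter of the pathway. Procr is the endothelial protein C receptor, Tspan8 is a tetraspanin of the cell surface and Bcl11b is a zinc finger transcription factor best known for its role in T cell development.

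Between 19958838 and 75795034 reads per library were assigned to genes, and 3 reads corresponded to 0.0399 to 0.16 CPM, the reads of a gene relative to the scaled library total. All CPM given here were scaled by the trimmed mean of M values (TMM). Marker genes of each layer followed the labels. The 9 basal epithelial markers (keratins, p63 and contractile genes) summed to 19436 to 27184 CPM in the MaSC/basal libraries and 88.5 to 423 CPM in the 6 luminal libraries. Against luminal cells, at FDR under 0.05, all 9 were higher in MaSC/basal cells and all 10 luminal markers were lower. Of all genes tested, 31.2% were higher in MaSC/basal cells and 30.5% were higher in luminal cells. By the labels, library batch 1 held the mammosphere library and replicate 1 of each population, batch 2 held MaSC/basal replicates 2 and 3 with replicate 2 of each luminal population, and batch 3 held Comma Dβ with replicate 3 of each luminal population, so that no batch 3 value exists for MaSC/basal cells. MaSC/basal replicate 1 is labelled wild type but was submitted under a name with p53 in it. The labels do not state that the libraries of a population came from separate animals, so p-values measure the spread between these libraries.

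On the GRCm38 (mm10) assembly, Lgr5 (Entrez gene 14160) lies at chr10:115450314-115587780 on the minus strand, and Tspan8 (216350) lies at chr10:115816817-115849893 on the plus strand, with 229036 bases and 1 annotated gene, Gm8960, between them. Procr (19124) lies at chr2:155751125-155755478 on the plus strand, Bcl11b (58208) at chr12:107910403-108004145 on the minus strand and Axin2 (12006) at chr11:108917828-108950783 on the plus strand. All 5 are protein-coding. A930009A15Rik overlaps Lgr5 on the opposite strand and had 42 reads over all 11 libraries. No other gene of the RefSeq table overlapped one of the 5. The promoter windows of RefSeq (GRCm38.p6) hold 1 start site for each of 4 genes, which is not the outermost one: it lies 92 bases inside the annotated gene for Procr, 467 for Tspan8, 731 for Bcl11b and 2521 for Axin2. Bases before this site and before any annotated GENCODE exon are shown for 3 of them, because these genes differed in direction between basal and luminal cells and because Wnt signalling acts through TCF and LEF factors, whose core motif was searched for as CTTTGA or CTTTGT on either strand. For Bcl11b only 62 bases precede an exon of another transcript, and none are printed. Each sequence is written from 5′ to 3′ along the gene, and capitals mark a match.
Procr, chr2:155750967-155751116, + strand: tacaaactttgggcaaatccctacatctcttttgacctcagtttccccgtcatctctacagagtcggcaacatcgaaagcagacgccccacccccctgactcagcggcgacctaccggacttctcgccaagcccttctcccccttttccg
Axin2, chr11:108920099-108920348, + strand: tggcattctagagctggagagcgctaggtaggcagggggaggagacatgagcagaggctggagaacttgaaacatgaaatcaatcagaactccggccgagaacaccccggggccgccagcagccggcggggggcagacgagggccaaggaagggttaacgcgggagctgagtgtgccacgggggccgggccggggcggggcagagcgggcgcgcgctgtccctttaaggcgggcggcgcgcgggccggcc
Tspan8, chr10:115817034-115817270, + strand: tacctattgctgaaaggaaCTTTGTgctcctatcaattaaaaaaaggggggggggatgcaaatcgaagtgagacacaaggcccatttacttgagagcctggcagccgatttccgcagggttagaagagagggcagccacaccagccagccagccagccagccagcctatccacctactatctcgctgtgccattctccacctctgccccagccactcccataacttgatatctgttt
The search covered 300 bases, 250 before and 50 after this start site. Bcl11b held 1 match, CTTTGA beginning 89 bases before the start site, within an annotated exon of another transcript. Tspan8 held 2, CTTTGT at 231 bases before it and CTTTGA at 4 bases after it, which is outside the printed stretch. Neither Axin2 nor Procr held a match. At least 1 of the 2 motifs, which can overlap only on opposite strands, was found in 31.2% of 32851 annotated windows of this length (CTTTGA in 16.0% and CTTTGT in 18.7%). A match is a stretch of letters and not a measured binding site. The windows also differed in base composition: that of Axin2 was 70.0% G or C with 31 CG pairs, that of Procr 58.3% with 13, that of Tspan8 51.7% with 5 and that of Bcl11b 43.0% with 9, where the median window had 52.7% and 7.

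Lgr5, Bcl11b, Axin2 and Procr were higher in MaSC/basal cells than in luminal cells, by 30.0-fold, 48.1-fold, 11.1-fold and 3.71-fold. Tspan8 was 5.59-fold lower. All 5 genes passed the filter on low counts and were among the 15422 genes tested, with FDR under 0.05 as the threshold. Luminal here is the mean of LP and ML cells. For none of the 5 did the 3 MaSC/basal libraries overlap the 6 luminal libraries, where 49.0% of all genes tested showed no overlap. Of all genes tested, 31.2% were higher in MaSC/basal cells and 30.5% were higher in luminal cells, and 4 and 1 of the 5 genes fell in these groups. The same 4 genes were higher and Tspan8 was lower in MaSC/basal cells against LP cells alone, where 29.4% of all genes were higher in MaSC/basal cells and 28.0% in LP cells. This was also so against ML cells, where the shares were 28.9% and 29.7%. Each value is the average level of a sorted population, in which fewer expressing cells and less RNA per cell cannot be told apart.

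**Figure D1:**
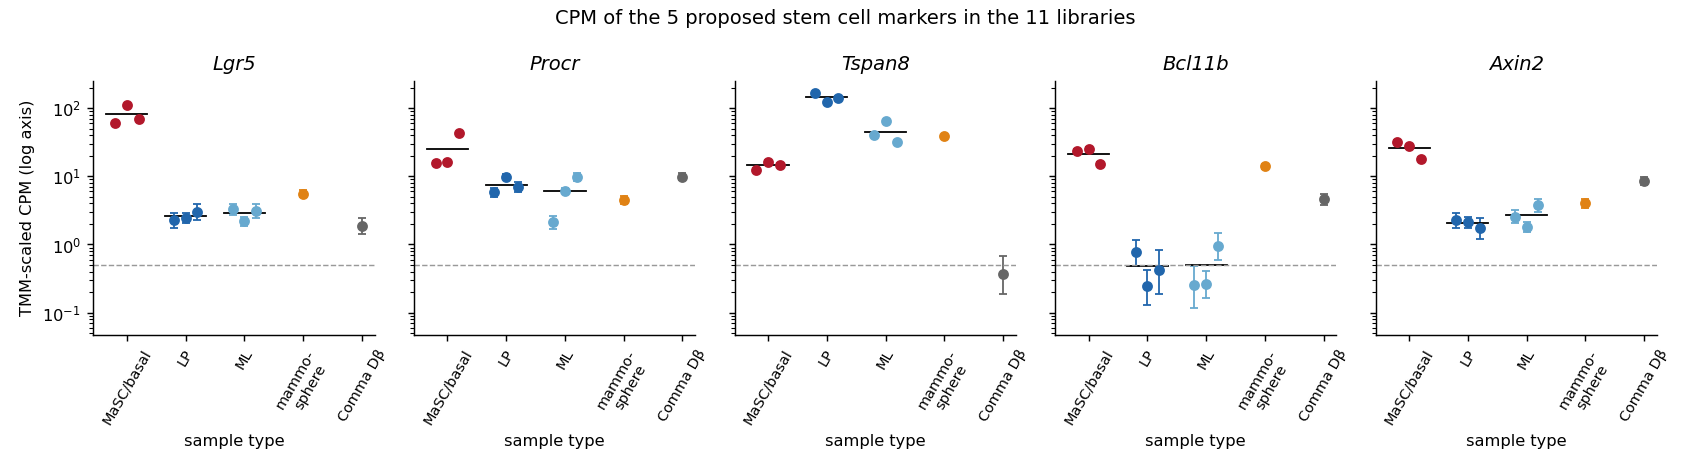
TMM-scaled CPM (log axis) of each gene in the 11 libraries by sample type. Points are libraries with 95% Poisson intervals (counting error only), black lines are means of 3 libraries and the dashed line is 0.5 CPM, the cutoff for expression. MaSC/basal points lie above every luminal point for Lgr5, Procr, Bcl11b and Axin2 and below every luminal point for Tspan8.

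Lgr5 reached 61.4, 112 and 70.0 CPM in the 3 MaSC/basal libraries. It reached 2.29, 2.45 and 2.99 CPM in LP cells and 3.31, 2.21 and 3.14 CPM in ML cells. The lowest MaSC/basal library thus lay far above the highest luminal library, and LP and ML libraries were interleaved. The log2 fold change of MaSC/basal over luminal cells was 4.91 ± 0.21 (SE, adjusted p = 6.84e-08), and the exact two-sided permutation test over the 84 arrangements of 3 and 6 libraries gave its smallest possible p of 0.0119. Low luminal values rested on 56 to 166 reads per library, well above the level of 3 reads.

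Axin2 was found at 32.3, 27.8 and 18.3 CPM in MaSC/basal cells. LP cells had 2.29, 2.12 and 1.76 CPM, and ML cells had 2.57, 1.81 and 3.78 CPM. MaSC/basal replicate 3 was the lowest of its group and still well above the highest luminal library. The log2 fold change was 3.47 ± 0.24 (SE, adjusted p = 1.04e-06, exact permutation p = 0.0119).

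Bcl11b stood at 23.8, 25.6 and 15.4 CPM in MaSC/basal cells. Its values were 0.776, 0.243 and 0.427 CPM in LP cells and 0.255, 0.266 and 0.957 CPM in ML cells, from 8 to 22 and 9 to 21 reads per library. The log2 fold change was 5.59 ± 0.41 (SE, adjusted p = 1.48e-06, exact permutation p = 0.0119), and its 95% interval of 27.4-fold to 84.4-fold overlapped that of Lgr5, 22.4-fold to 40.2-fold. Luminal means of 0.482 (LP) and 0.492 CPM (ML) lay just under the 0.5 CPM above which the study called a gene expressed, and 1 library of each population lay above it. The ML library above it, replicate 3, had the highest basal marker sum of all luminal libraries, 423 CPM. The LP library above it, replicate 1, had the lowest such sum of the LP libraries, 120 CPM. The part of basal cell RNA in these values was not tested. Since T cells express Bcl11b, T cell markers were summed beside it. The 8 markers reached 10.6 to 13.6 CPM in MaSC/basal libraries and 1.53 to 2.38 CPM in luminal libraries. Nearly all of the MaSC/basal sum was Lck, a kinase of T cell receptor signalling and the only one of the 8 that passed the filter on low counts. Lck had 13.01, 9.83 and 11.04 CPM in MaSC/basal libraries and 0.67 to 1.55 CPM in luminal libraries, and was 3.54 higher in MaSC/basal cells on the log2 scale. The other 7, which include Cd3d, Cd3e and Cd3g, together reached 0.611, 0.738 and 1.04 CPM in MaSC/basal libraries and 0.501 to 1.59 CPM in luminal libraries, and in each MaSC/basal library 1 or 2 of them had no read. The part of T cell RNA in the Bcl11b values was not tested.

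Procr was less separated than the other basal genes. MaSC/basal libraries had 15.9, 16.0 and 43.1 CPM, LP libraries 5.85, 9.90 and 6.997 CPM and ML libraries 2.12, 6.18 and 9.71 CPM. Replicate 3 of the MaSC/basal cells was 2.71 times as high as replicate 1, and ML libraries spread 4.58-fold from lowest to highest. The log2 fold change was 1.89 ± 0.44 (SE, adjusted p = 0.00357, exact permutation p = 0.0119) against luminal cells and 1.71 ± 0.54 (adjusted p = 0.0201) against LP cells. Without MaSC/basal replicate 3 it fell to 1.26 (adjusted p = 0.0301) and 1.08 (adjusted p = 0.093), and the call against LP cells was also lost without LP replicate 1 (1.54, adjusted p = 0.0674) or LP replicate 3 (1.65, adjusted p = 0.0588).

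Procr is also a gene of blood vessel endothelium, and several endothelial markers moved with it. The study sorted lineage-negative cells, with antibodies that include CD31, the product of Pecam1. Even so, Pecam1 reached 18.1, 19.2 and 39.5 CPM in the MaSC/basal libraries, and Cdh5 (VE-cadherin) reached 14.3, 11.02 and 24.6 CPM. Replicate 3 was the highest for both, as it was for Procr. Not every endothelial marker followed: Egfl7 had 4.12, 3.81 and 3.94 CPM, and Kdr was level in replicates 1 and 3 (9.31 and 9.38 CPM). The sum of 9 endothelial markers without Vwf was 71.4, 64.1 and 125 CPM in MaSC/basal libraries, 13.2, 35.2 and 28.0 CPM in LP libraries and 13.2, 46.8 and 54.3 CPM in ML libraries. With Vwf, which made up most of the sum in ML cells, the sums were 86.0, 86.3 and 171 CPM in MaSC/basal, 23.5, 65.9 and 55.1 CPM in LP and 107, 154 and 145 CPM in ML libraries. ML cells, with the lowest mean of Procr, thus overlapped MaSC/basal cells in the full sum and lay below them without Vwf. Of the 10 markers 8 were higher in MaSC/basal than in luminal cells, and so were 5 of 6 pericyte markers, beside 31.2% of all genes. Pericyte sums were 37.3 to 54.3 CPM against 4.09 to 16.2 CPM. Against LP cells alone 8 endothelial and 4 pericyte markers were higher in MaSC/basal cells, beside 29.4% of all genes. Against ML cells alone only 3 endothelial and 2 pericyte markers were higher, beside 28.9% of all genes. There 1 endothelial marker was lower, and 6 endothelial and 4 pericyte markers did not pass. Comma Dβ cells had 9.94 CPM of Procr beside an endothelial sum of 4.39 CPM, with Pecam1 at 0.204 CPM and Cdh5 at 0.17 CPM. The part of endothelial or pericyte RNA in the Procr values of the sorted libraries was not tested. None of the other 4 genes was highest in MaSC/basal replicate 3.

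**Figure D2:**
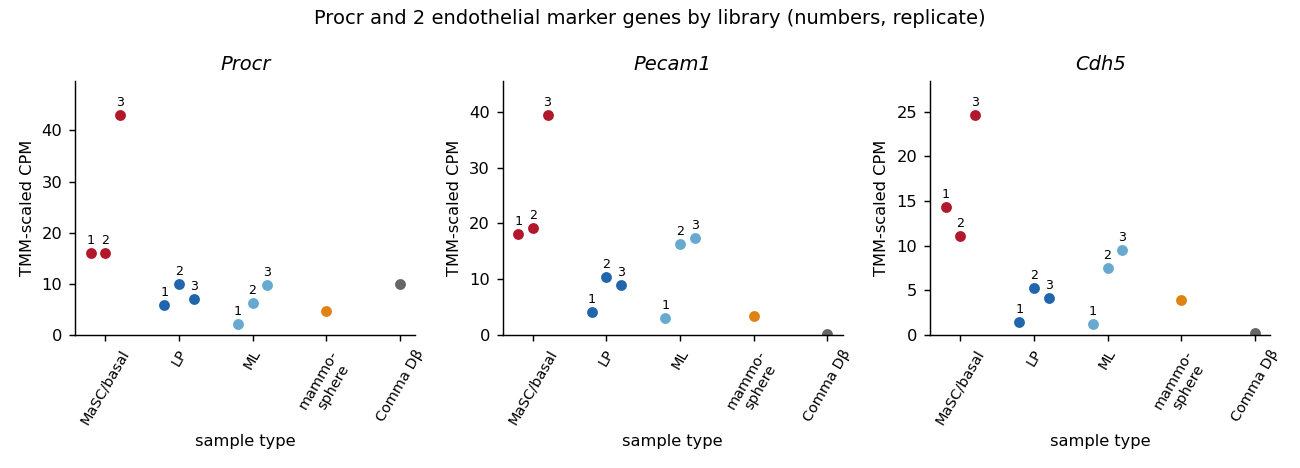
TMM-scaled CPM of Procr and of the endothelial markers Pecam1 and Cdh5 by sample type, with 1 point per library and replicate numbers above the points of sorted cells. MaSC/basal replicate 3 is the highest library in all 3 panels (43.1, 39.5 and 24.6 CPM), and Comma Dβ has 9.94 CPM of Procr with Pecam1 at 0.204 CPM.

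Tspan8 ran the other way. It reached 12.5, 16.2 and 14.8 CPM in MaSC/basal cells, 165, 124 and 144 CPM in LP cells and 40.8, 64.0 and 31.8 CPM in ML cells. The 3 populations did not overlap, and LP cells were the highest. The log2 fold change of MaSC/basal over luminal cells was -2.48 ± 0.23 (SE, adjusted p = 7.71e-06, exact permutation p = 0.0238). Against LP cells it was -3.31 ± 0.26 (adjusted p = 3.56e-06) and against ML cells -1.65 ± 0.24 (adjusted p = 0.000215). MaSC/basal cells nevertheless had 738 to 814 Tspan8 reads per library, so that the gene was well above the expression cutoff there.

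Among the luminal populations, Tspan8 was the only one of the 5 to differ, at 3.16-fold higher in LP than in ML cells (log2 fold change 1.66 ± 0.24, SE, adjusted p = 0.00137). Of all genes tested, 14.3% were higher in LP and 17.5% higher in ML cells. The LP over ML values were -0.16 ± 0.27 for Lgr5 (adjusted p = 0.687), 0.36 ± 0.54 for Procr (0.645), 0.09 ± 0.60 for Bcl11b (0.923) and -0.37 ± 0.31 for Axin2 (0.396), and LP and ML libraries overlapped for each of these 4. The wide errors of Procr and Bcl11b leave room for differences of more than 2-fold.

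**Figure D3:**
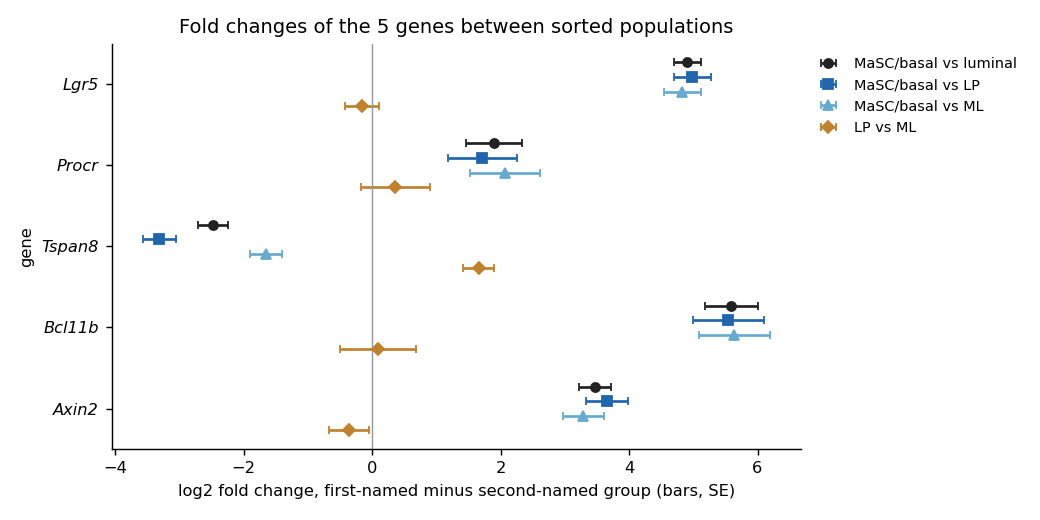
Log2 fold changes of the 5 genes in the 4 comparisons of sorted populations (first-named minus second-named), with bars of 1 SE. MaSC/basal values are above 0 for Lgr5, Procr, Bcl11b and Axin2 and below 0 for Tspan8 in every comparison. For LP against ML only Tspan8 (1.66 ± 0.24) was past the threshold of FDR under 0.05.

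Levels of different genes were compared per length, as RPKM from the exon lengths in the deposited tables. In MaSC/basal cells, Lgr5 (17.2 ± 5.76 RPKM, SD, n = 3) and Procr (16.6 ± 10.4) had the highest means and did not differ beyond their spread. The Procr mean rested on replicate 3, with 10.6, 10.7 and 28.7 RPKM in the 3 libraries and 10.6 RPKM without it. Tspan8 (9.54 ± 1.23) came next and overlapped Procr within its spread. Axin2 had 6.13 ± 1.68 RPKM and Bcl11b had 2.72 ± 0.68 RPKM, the lowest level of the 5. In LP cells the order was Tspan8 (94.7 ± 13.6 RPKM), Procr (5.04 ± 1.39), Lgr5 (0.547 ± 0.0777), Axin2 (0.483 ± 0.0633) and Bcl11b (0.0609 ± 0.0341), with Lgr5 and Axin2 within their spread. In ML cells it was Tspan8 (29.9 ± 10.9), Procr (3.99 ± 2.52), Axin2 (0.639 ± 0.234), Lgr5 (0.613 ± 0.126) and Bcl11b (0.0622 ± 0.0508), again with Lgr5 and Axin2 within their spread. Tspan8 was therefore the most abundant of the 5 transcripts per length in both luminal populations.

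The genes around each member were described by lists of relatives and partners. Each list also holds the member itself, which is counted in all numbers and shares given for the list. Of 11 genes of the LGR receptors, R-spondins and their membrane partners, 8 were tested, 5 were higher in MaSC/basal cells, 1 was higher in luminal cells and 2 did not pass, with a median log2 fold change of 1.59 against -0.01 over all genes tested. These were 62.5% and 12.5% of the genes tested, where 31.2% and 30.5% of all genes were higher in MaSC/basal and in luminal cells. Both relatives of Lgr5 were higher in MaSC/basal cells. Lgr4 had 244 ± 18.7 CPM in MaSC/basal cells (SD, n = 3), 41.2 ± 1.44 in LP and 26.8 ± 1.64 in ML cells, which was 2.88 ± 0.09 above luminal cells on the log2 scale (SE, adjusted p = 2.31e-08). Lgr6 had 277 ± 18.5, 99.4 ± 17.2 and 32.0 ± 13.7 CPM (2.29 ± 0.22, adjusted p = 7.95e-06). Znrf3 and Rnf43, ubiquitin ligases that remove Wnt receptors and that R-spondins block, were also higher in MaSC/basal cells (2.14 and 1.05, adjusted p = 2.46e-07 and 0.000636). Rnf43 did not pass against LP cells alone (0.44 ± 0.22, adjusted p = 0.111) but did against ML cells (1.66 ± 0.23, adjusted p = 0.000128). Both ligases are also on the Wnt list below. The ligand Rspo1 was the gene higher in luminal cells (-3.02 ± 0.72, adjusted p = 0.00418), with 1.52 to 2.45 CPM in MaSC/basal libraries and 3.55 to 34.4 CPM in luminal ones. Rspo3 was too low to be tested. The co-receptors Lrp5 and Lrp6 had values of -0.03 (adjusted p = 0.893) and 0.07 (adjusted p = 0.616).

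Of 15 TCF and LEF factors and Wnt feedback targets, a list that holds Lgr5 and Axin2 themselves, 13 were tested. Of these, 11 were higher in MaSC/basal cells, 1 was lower and 1 did not pass, with a median of 3.03 and shares of 84.6% and 7.69%. The Wnt inhibitors Nkd1 (89.1 ± 27.5 CPM in MaSC/basal cells, 0.765 ± 0.347 in LP and 0.687 ± 0.198 in ML cells) and Nkd2 (63.5 ± 12.4, 1.01 ± 0.41 and 1.27 ± 0.798) had the largest fold changes of the list, 6.92 ± 0.28 (adjusted p = 5.15e-08) and 5.83 ± 0.31 (adjusted p = 1.97e-07). The factor Tcf7 was at 141 ± 13.2, 5.87 ± 1.16 and 8.57 ± 1.28 CPM (4.31 ± 0.14, adjusted p = 2.33e-08), and Tcf7l1 was also higher in MaSC/basal cells (2.51 ± 0.23, adjusted p = 5.96e-06). Tcf7l2 was the exception, at 42.2 ± 3.08 CPM in MaSC/basal cells, 127 ± 36.8 in LP and 43.6 ± 0.956 in ML cells (-0.82 ± 0.18, adjusted p = 0.00233). Lef1 had a mean under 1 CPM in each sorted population and a value of -0.45 ± 1.75 (adjusted p = 0.84). The list of the destruction complex around Axin2 also holds its target β-catenin and the Dishevelled genes (Dvl1 and its relatives), which are not parts of it. Of its 12 genes tested, 5 were higher in MaSC/basal cells, 3 were higher in luminal cells and 4 did not pass, with a median of 0.23. Of all genes, 31.2% and 30.5% were in these groups. Axin1, the close relative of Axin2, had 118 ± 4.94, 154 ± 30.6 and 119 ± 28.9 CPM and a value of -0.19 ± 0.17 (adjusted p = 0.345), while Apc (-1.23, adjusted p = 0.000265) and Dvl1 (-1.09, adjusted p = 4.27e-05) were higher in luminal cells.

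**Figure D4:**
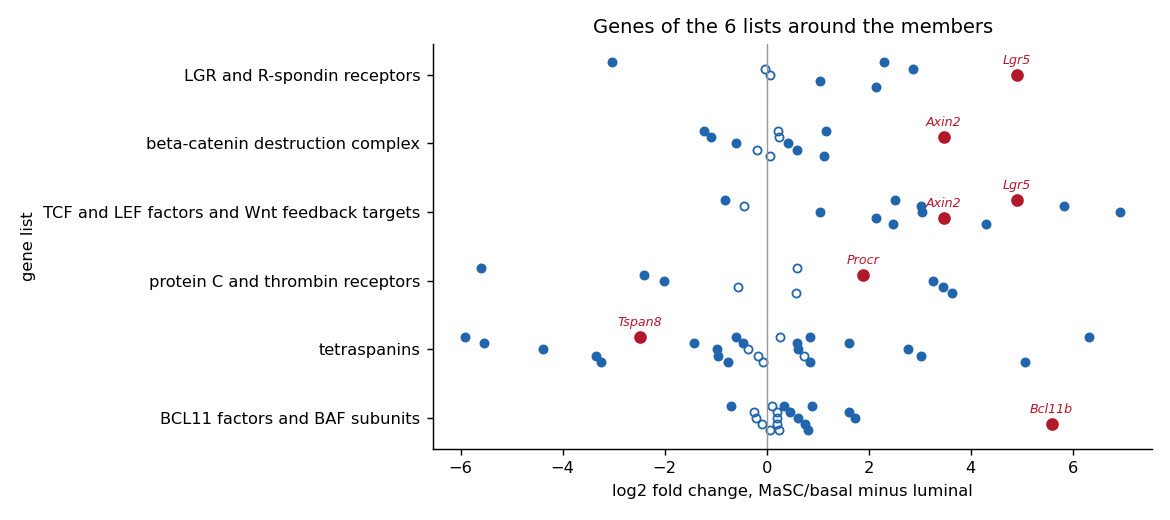
Log2 fold change of MaSC/basal over luminal cells for the tested genes of 6 lists, with 1 point per gene (filled, FDR under 0.05, open, not past it). Members are red and named. In the Wnt list 11 of 13 points are filled and right of 0, and the tetraspanins lie on both sides, with 9 higher and 12 lower.

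Procr had 11 listed partners in protein C and thrombin signalling. Of the 12 genes with Procr, 10 were tested, 4 were higher in MaSC/basal cells, 3 were higher in luminal cells and 3 did not pass (median 0.59). The shares of 40.0% and 30.0% were near the 31.2% and 30.5% of all genes. Protein S, Pros1, the cofactor of activated protein C, had 299 ± 44.0 CPM in MaSC/basal cells, 38.7 ± 9.75 in LP and 18.8 ± 5.47 in ML cells (3.47 ± 0.20, adjusted p = 2.95e-07). The thrombin receptor F2r, through which activated protein C bound to Procr can signal, had 87.7 ± 5.54, 12.7 ± 3.43 and 6.45 ± 2.54 CPM (3.26 ± 0.22, adjusted p = 8.46e-07). Proc itself, which encodes protein C, was a luminal transcript, at 0.174 ± 0.0438, 3.46 ± 2.04 and 21.2 ± 5.78 CPM (-5.59 ± 0.47, adjusted p = 3.74e-06). Tissue factor, F3, was luminal as well (-2.01 ± 0.29, adjusted p = 0.000149), and its inhibitor Tfpi was basal (3.63 ± 0.32, adjusted p = 5.35e-06). Thrombomodulin, Thbd, which works beside Procr on endothelium, had 11.3, 11.9 and 30.7 CPM in MaSC/basal libraries and 5.20 to 16.8 CPM in luminal libraries (0.60 ± 0.40, adjusted p = 0.212). Its high library was again MaSC/basal replicate 3.

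Of 29 tetraspanins, 26 were tested, 9 were higher in MaSC/basal cells, 12 were higher in luminal cells and 5 did not pass (median -0.26). The shares were 34.6% and 46.2%, beside 31.2% and 30.5% of all genes. Tspan8 shared its direction with Tspan33 (-5.55 ± 0.53, adjusted p = 8.69e-06), which was also highest in LP cells, at 0.992 ± 0.297 CPM in MaSC/basal cells, 85.3 ± 33.7 in LP and 25.03 ± 15.7 in ML cells. Tspan1 (1.25 ± 0.247, 35.2 ± 17.2 and 160 ± 31.6 CPM) and Cd82 (18.4 ± 0.798, 317 ± 15.8 and 466 ± 25.7 CPM) were luminal with ML above LP cells. The widest basal difference was that of Tspan18, at 119 ± 24.0, 1.76 ± 0.985 and 1.24 ± 0.506 CPM (6.33 ± 0.31, adjusted p = 1.19e-07), and Cd151, a partner of laminin-binding integrins, was higher in MaSC/basal cells by 0.84 ± 0.11 (adjusted p = 7.49e-05). Of 19 BCL11 factors and subunits of the BAF chromatin remodelling complex, 9 were higher in MaSC/basal cells, 1 was lower and 9 did not pass (median 0.25), or 47.4% and 5.26% higher and lower. Bcl11a, the relative of Bcl11b, did not share its pattern, with 6.24 ± 2.10 CPM in MaSC/basal cells, 9.44 ± 3.65 in LP and 3.15 ± 0.518 in ML cells (0.20 ± 0.30, adjusted p = 0.582). It was higher in LP than in ML cells (1.59 ± 0.36, adjusted p = 0.00946). The ATPase Smarca4 had a value of 0.20 (adjusted p = 0.108).

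In mammosphere culture the 4 basal genes parted. Bcl11b persisted best, at 13.98 CPM or 64.8% of the MaSC/basal mean (95% interval 59.8 to 70.1%, counting error only). Procr was at 18.2%, Axin2 at 15.4% and Lgr5 at 6.89% of it, and Tspan8 was at 267%. The mammosphere library has no replicate, so a change of more than 2-fold against the MaSC/basal mean was used as the criterion, without a test. By this criterion 3 of the 5 genes were lower and 1 was higher, where 20.9% of all genes tested were lower and 19.5% were higher. MaSC/basal libraries enter this comparison and the one with luminal cells alike, so these are not independent.

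The mammosphere library had 5.59 CPM of Lgr5 (248 reads), 14.5-fold below the MaSC/basal mean of 81.2 CPM and 2.05 times the luminal mean of 2.73 CPM. Against MaSC/basal replicate 1, which shares its batch, Lgr5 was at 9.11%. Axin2 had 4.01 CPM (178 reads), 6.50-fold below the MaSC/basal mean and just above the highest luminal library. Procr had 4.55 CPM (202 reads), 5.49-fold below the MaSC/basal mean and inside the luminal range. Without MaSC/basal replicate 3, Procr was at 28.5% of the mean in place of 18.2%. Endothelial markers were low in this library, at a sum of 20.9 CPM against 86.0 to 171 CPM in MaSC/basal libraries, and their part in the lower Procr was not tested.

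Bcl11b, with 620 reads in the mammosphere library, was below each of the 3 MaSC/basal libraries but 1.54-fold lower than their mean, and it was 28.7 times the luminal mean. Leaving out each MaSC/basal library in turn gave 56.7 to 71.4% of the mean. T cell markers summed to 0.631 CPM in this library, of which Lck was 0.541 CPM. Tspan8 reached 38.8 CPM (1719 reads), above each MaSC/basal library and between the lowest and the highest ML library. The basal epithelial markers summed to 5492 CPM in mammospheres, against 19436 to 27184 CPM in MaSC/basal libraries, and the luminal markers summed to 2433 CPM, against 619 to 828 CPM. Fibroblast markers summed to 2467 CPM, against 653 to 948 CPM, and pericyte markers to 239 CPM, against 37.3 to 54.3 CPM. Leukocyte and macrophage markers summed to 40.7 CPM, against 12.9 to 15.6 CPM. Cd68 alone made up 23.6 CPM of this sum, and Pdgfrb 151 CPM of the pericyte sum. Not every marker on a list whose sum rose was higher. Of 5 leukocyte and macrophage markers tested, 3 were over 2-fold higher and 2 were over 2-fold lower. The lower ones were Ptprc and Cd79a, at 26.5% and 6.99% of the MaSC/basal mean. Of 6 pericyte markers 3 were higher by that much and 1, Rgs5, was lower. Of 8 fibroblast markers 6 were higher and 1 was lower, and of 10 luminal markers 7 were higher and 2 were lower. The part of these shifts in the values of the 5 genes was not tested.

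In the Wnt list, 8 of the 13 genes were over 2-fold lower in the mammosphere library than in MaSC/basal cells, with Lgr5 and Axin2 among them. In the same list 1 was over 2-fold higher. The shares were 61.5% and 7.69%, where those of all genes were 20.9% and 19.5%. Nkd1 was at 2.86 CPM or 3.21% of the MaSC/basal mean, Tcf7 at 17.5% and Znrf3 at 26.8%. Nkd2 did not follow, at 86.6 CPM or 136%. Lgr4 was at 139 CPM or 57.0% and Lgr6 at 68.0 CPM or 24.6%, so that Lgr5 had the lowest share of the 3 LGR receptors. In the protein C list 4 of 10 genes were over 2-fold lower and 2 were over 2-fold higher, with F2r at 240 CPM or 274% beside Procr at 18.2%. Among tetraspanins 9 of 26 were over 2-fold higher and 4 were over 2-fold lower (34.6% and 15.4%). Tspan33, at 55.7 CPM against 0.992 CPM in MaSC/basal cells, Cd82 at 853% and Tspan1 at 12.6 CPM against 1.25 CPM were higher in the mammosphere library, as Tspan8 was, while Tspan18 was at 6.44%.

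In the Comma Dβ library all 5 genes were more than 2-fold below the MaSC/basal mean, where 26.1% of all genes tested were lower by that much and 16.7% were higher. Lgr5 had 1.87 CPM (55 reads), or 2.31% of the MaSC/basal mean, and was below the lowest luminal library. Tspan8 had 11 reads, or 0.374 CPM (95% interval 0.187 to 0.67 CPM), at 2.58% of the MaSC/basal mean, under the 0.5 CPM cutoff. Bcl11b was at 4.60 CPM or 21.3%, Axin2 at 8.54 CPM or 32.7% and Procr at 9.94 CPM or 39.7%. Without MaSC/basal replicate 3, Procr was at 62.2% and no longer past 2-fold. Strain, pregnancy state and culture differ together between this line and the sorted cells and cannot be told apart. Library batch also differs between this line and every MaSC/basal library, and cannot be told apart from them either.

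**Figure D5:**
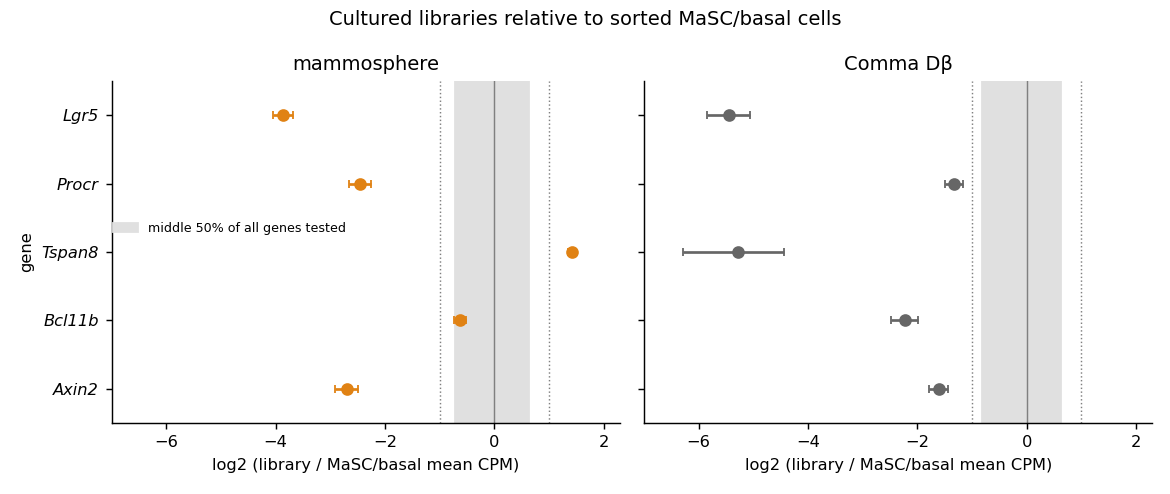
Log2 ratio of the mammosphere library (left) and the Comma Dβ library (right) to the mean CPM of 3 MaSC/basal libraries for each gene, with 95% Poisson intervals of the cultured library. Dotted lines are 2-fold changes and grey bands hold the middle 50% of all genes tested. The bands were computed with 0.5 CPM added to both values and the points without it, so low values are not on quite the same scale. In mammospheres only Bcl11b lies between the dotted lines, and only Tspan8 lies above 0 (267% of the MaSC/basal mean), while all 5 lie below the lower line in Comma Dβ.

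None of the 5 genes was too low to judge in MaSC/basal or mammosphere cells, where the lowest value, Axin2 in mammospheres, rested on 178 reads. Bcl11b in LP and ML cells and Tspan8 in Comma Dβ cells were the values at or under the cutoff, and each rested on 8 to 22 reads per library.

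The genes whose pattern over the 11 libraries was most like each member were found by Pearson's r of log2 CPM among 13636 genes. These values describe 11 libraries of 5 types that share depth and batch, and carry no test. The closest to Lgr5 was Nkd1 (r = 0.99), before Aatk and Spock2. The closest to Axin2 were Mycn (0.98), Znrf3 (0.98) and Sema3b (0.98). For Bcl11b they were Gja1 (0.99), a gap junction protein, Krt14 (0.97), the basal keratin, and Hspb6 (0.97), and for Tspan8 they were Anpep (1.00), Arhgef6 (0.99) and Wnt5b (0.99). Procr had the weakest best match, with Utp15 (0.95), Ch25h (0.93) and Eml6 (0.93). Among the 5 genes themselves, r was 0.90 for Bcl11b with Axin2, 0.89 for Lgr5 with Axin2, 0.81 for Lgr5 with Bcl11b, 0.71 for Procr with Axin2, 0.69 for Procr with Lgr5 and 0.60 for Procr with Bcl11b, and between -0.59 and -0.21 for Tspan8 with each of the others.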

How the data were processed

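RNA-seq of 11 libraries was used. The authors aligned single-end reads to mm10 (GRCm38), counted them per Entrez gene with featureCounts and deposited raw counts with an exon length for each of 27179 genes. The strand setting is not given in the sources used here. The submitters' processing notes also name CASAVA 1.8.0, edgeR 3.6.2 and limma 3.20.5. Symbols came from RefSeq (25275 genes) and GENCODE (18), and 1886 genes had none.

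Counts per gene were tested with edgeR 4.0.16 (R 4.3.3). The 15422 genes above 0.5 CPM in 3 or more libraries entered, with TMM factors, a quasi-likelihood fit over all 11 libraries that gave every sample type its own mean, in place of the limma fit of the study. P-values were adjusted by Benjamini-Hochberg over all genes tested, and SE is the log2 fold change divided by the square root of F. The 95% intervals of fold changes are normal approximations from this SE. They were not widened for the small number of libraries and may be too narrow. Permutation tests were exact, two-sided and used log2 of CPM plus 0.5. Single libraries carry exact 95% Poisson intervals, which hold counting error alone and no spread between replicates. Reads lacking molecular identifiers are not independent molecules, so these intervals may be too narrow even for counting error. Intervals of percentages also leave out the spread of the MaSC/basal mean.

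The members and lists were chosen with earlier results of these data known. Genes named from a list were the 4 most abundant in sorted cells, the 2 largest changes in each direction and fixed close relatives or partners, not all of which are described. The closest genes had a mean of at least 1 CPM. Library batch pairs LP and ML libraries by the labels, and deviations of same-batch libraries correlated at 0.32, 0.313 and 0.526, against -0.419 to 0.0861 for other pairings. Alternatives were DESeq2 size factors, no scaling, other filters, limma voom 3.58.1 with sample weights, DESeq2 1.42.0, the 9 sorted libraries alone, a replicate block for library batch, other pseudocounts and cutoffs, and leaving out each sorted library.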

Additional observations from a re-analysis of the deposited data

How the results depend on the processing

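The direction and call of each gene held in nearly all settings: 332 of 340 alternative fold changes of the 5 genes kept both, and in MaSC/basal against luminal cells all 5 stayed past the threshold in all 17 alternatives, with library batch as a replicate block giving 4.97 for Lgr5, 1.99 for Procr, -2.63 for Tspan8, 6.0 for Bcl11b and 3.62 for Axin2. The block changed no call of these genes. Leaving out libraries in turn moved Procr in MaSC/basal against LP cells between 1.08 and 1.97, with 3 calls lost as described, and moved the values for LP against ML cells that did not pass between -0.0417 and 0.85 for Procr and between -0.46 and 0.80 for Bcl11b. Bcl11b was -0.0941 there without scaling, a setting that moves the median of all genes to -0.19. The counts of genes higher in LP and in ML cells ranged from 1334 to 2254 and from 1660 to 2951, lowest without ML replicate 1 (1334) and without LP replicate 1 (1660), beside 1749 and 1756 genes higher in ML cells without ML replicate 1 and LP replicate 2. The cause of these changes was not tested. The log2 ratio of Tspan8 in mammospheres, 1.42, was 1.64 without scaling and 1.63 against the MaSC/basal library of its batch, and in Comma Dβ, -5.28, it was -4.98 without scaling. List counts without MaSC/basal replicate 1 or 3, an alternative chosen after seeing the data, stayed within 1.5 times of the full counts. Other pseudocounts and expression cutoffs of 0.25 and 1 CPM gave permutation calls and counts of expressed genes within the same limits. The calls under the cutoff do depend on it. Bcl11b in LP (0.482 CPM) and ML cells (0.492 CPM) and Tspan8 in Comma Dβ (0.374 CPM) lie above a cutoff of 0.25 CPM. Depth limits only the values resting on 8 to 22 reads, and 1 library of each culture gives no estimate of replicate spread.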

Other observations

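A further list held 24 other genes that have been proposed as markers of mammary stem or progenitor cells, all of which were tested. Between MaSC/basal and luminal cells, 10 were higher in MaSC/basal cells, 9 were higher in luminal cells and 5 did not pass (median log2 fold change 0.20). The shares, 41.7% and 37.5%, stood beside 31.2% and 30.5% of all genes tested. Snai2, a transcription factor of basal cells, had 109 ± 18.9 CPM in MaSC/basal cells (SD, n = 3), 1.93 ± 1.35 in LP and 0.787 ± 0.424 in ML cells (6.48 ± 0.37, SE, adjusted p = 2.65e-07), and the Notch ligand Dll1 had 459 ± 112, 13.7 ± 2.60 and 4.40 ± 1.58 CPM (5.89 ± 0.25, adjusted p = 5.85e-08). The integrins Itgb1, which encodes CD29, and Itga6 were higher in MaSC/basal cells by 1.23 and 1.88 on the log2 scale (adjusted p = 1.86e-05 and 4.1e-06). Itgb1 was used for the gates, as were CD24 and CD61, the products of Cd24a and Itgb3 on the same list. Differences of these genes are no finding, and the counts above include them.

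The largest luminal differences were those of Elf5 (-5.21 ± 0.29, adjusted p = 2.55e-07) and the receptor Kit (-5.04 ± 0.30, adjusted p = 3.45e-07), known from luminal progenitors, with 394 ± 43.2 and 611 ± 127 CPM in LP cells. Sox9 was higher in luminal cells (-1.46 ± 0.15, adjusted p = 1.35e-05). In the mammosphere library 7 of the 24 genes were over 2-fold above the MaSC/basal mean and 6 were over 2-fold below it, where 19.5% and 20.9% of all genes were. Elf5 stood at 150 CPM in mammospheres against 5.25 CPM in MaSC/basal cells and Kit at 85.7 against 10.7 CPM, whereas Snai2 stood at 20.7 against 109 CPM. The endothelial gene Cdh5 is also on this list, and without MaSC/basal replicate 3 the count higher in MaSC/basal cells was 7 in place of 10.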
